A study of Mus musculus with 6 samples.

Results

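Cd22 and 8 other genes of the sialic acid-binding Siglec receptor family were followed in IL-4-treated mouse macrophages, 3 libraries labelled CD22 knockout and 3 wild type. The 9 members (Cd22, Siglec1, Cd33, Mag, Siglece, Siglecf, Siglecg, Siglech and Siglec15) were taken by gene name from a deposited table of 31883 genes, each matching 1 row. The first group is labelled as marrow macrophages from C57Bl/6 mice with a global CD22 knockout, and the second as the same cells from wild type C57Bl/6 mice. Both were grown with 25% L929-conditioned medium, which supplies macrophage growth factor, and then held for 48 hours in 20 ng/mL IL-4, so no untreated cells were compared. A knockout that is global would remove CD22 from every cell of the mouse, and the allele is not described in the labels. Nothing in the labels ties the 3 libraries of a group to separate mice, so a p-value here sets a difference against the scatter of these libraries alone, and that scatter may be technical. Each library has a batch code of its own, so no within-batch value can be had, and batch and genotype cannot be told apart.

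Siglecs are cell surface lectins that bind sialic acids, the acidic sugars that cap the glycans of host cells, and so let immune cells read those glycans as self. Most of them carry cytoplasmic ITIM motifs that recruit the phosphatases SHP-1 and SHP-2 and dampen activating receptors, whereas a few pair with the adaptor DAP12, which carries an activating ITAM motif. CD22, best known as a brake on the B cell receptor, has also been studied in microglia as a receptor that restrains phagocytosis, and IL-4 drives macrophages to the alternatively activated, M2-like state. Levels are given as FPKM, fragments scaled to transcript length and to all mapped fragments, so that genes can be set against each other. Read depth is unknown because no counts were used here.

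Libraries summed to 314441 to 348332 FPKM, and 19724 to 20492 genes per library had a value above 0. Macrophage markers were present in every library, from Aif1 at 6.34 to 12.7 FPKM to Lyz2 at 4230 to 7210 FPKM. Adgre1, which encodes F4/80, was at 331 to 405 FPKM, while the neutrophil markers summed to 0.631 to 1.82 FPKM. Wild type library 1 held the most adipocyte transcript (8 markers, 47.4 FPKM) and the most skeletal muscle transcript (5.63 FPKM against 0 to 0.237). In wild type libraries 2 and 3 the adipocyte sum was 12.8 and 15.8 FPKM. In the libraries labelled CD22 knockout it was 9.96, 11.7 and 3.53 FPKM, below each wild type library. All 4 adipocyte markers tested had a lower mean in the libraries labelled CD22 knockout, and 0 were called (median log2 fold change -1.07). Wild type library 2 held the epididymis markers (6.85 FPKM, against 0 to 0.0968 elsewhere), led by Lcn5 at 5.16 FPKM. Siglece, Siglecf and Cd22 are therefore also given without these libraries. Transcripts of the mitochondrial genome took 17.2%, 20.4% and 15.6% of the FPKM in the libraries labelled CD22 knockout and 11.8%, 11.7% and 16.5% in the wild type libraries.

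Of the 9 genes, 7 lie on chromosome 7 (GENCODE release 21, GRCm38). Cd22 occupies positions 30865402 to 30880342 on the minus strand, and the near end of Mag, on the same strand, lies 18.8 kb beyond it. Siglecf, Siglecg, Cd33 and Siglece lie close together 12.5 to 12.8 Mb from Cd22, between positions 43351341 and 43660161, and Siglech lies 24.9 Mb from it. Paralogs could share reads, so the transcripts were compared in words of 50 bases. The share of a member's words found in transcripts of another gene was 0% for Siglece and Siglec15, 0.206% for Siglecf, 0.394% for Cd33, 0.51% for Cd22 and 1.33% for Siglec1. It was highest for Siglecg, at 4.48%, mostly with the pseudogene Gm29791.

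The DNA sequences before the starts of 3 of these genes are shown because Cd33 and Siglece were the members with the widest gap between the groups, and because Cd33 and Siglecf share a stretch there. They are the 250 bases upstream of the RefSeq start in GRCm38.p6, read along the gene's own strand. The Cd33 window lies at chr7:43533172-43533421 on the minus strand, that of Siglecf at chr7:43351091-43351340 on the plus strand and that of Siglece at chr7:43660162-43660411 on the minus strand. The Cd33 window is inside the GENCODE span of that gene, 43524216 to 43544428, and so not upstream of its GENCODE start. The Siglecf and Siglece windows adjoin the GENCODE starts of those genes. Capitals mark the longest run, 16 bases, that the Cd33 and Siglecf windows have in common.
Cd33: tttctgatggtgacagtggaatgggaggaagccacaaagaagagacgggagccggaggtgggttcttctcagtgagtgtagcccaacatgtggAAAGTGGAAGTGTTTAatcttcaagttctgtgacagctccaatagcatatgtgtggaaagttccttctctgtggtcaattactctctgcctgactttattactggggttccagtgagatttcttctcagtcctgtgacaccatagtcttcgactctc
Siglecf: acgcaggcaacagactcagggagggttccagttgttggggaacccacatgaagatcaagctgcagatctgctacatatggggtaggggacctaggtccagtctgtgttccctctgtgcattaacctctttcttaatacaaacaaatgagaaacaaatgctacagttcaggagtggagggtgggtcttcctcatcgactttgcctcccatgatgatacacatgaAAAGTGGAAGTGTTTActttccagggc
Siglece: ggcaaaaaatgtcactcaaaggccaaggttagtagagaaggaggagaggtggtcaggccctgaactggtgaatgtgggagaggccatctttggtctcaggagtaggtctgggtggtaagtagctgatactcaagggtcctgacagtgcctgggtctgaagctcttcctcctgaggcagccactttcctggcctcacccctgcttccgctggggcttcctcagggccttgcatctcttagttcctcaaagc
The run starts 157 bases before the RefSeq start of Cd33 and 27 bases before that of Siglecf, and no other of 32851 mouse windows of this length holds it on either strand. It contains GGAAGTG, a core bound by ETS factors such as the myeloid factor PU.1. Those letters, on either strand, are in 8.55% of all windows. Of the members, only the 7 on chromosome 7 were compared, without Siglec1 and Siglec15. Among these the letters were in the windows of Cd33, Siglecf and Siglech and not in those of Cd22, Mag, Siglecg or Siglece. A match describes the sequence only, and here it went with 2 genes that were detected and with Siglech, which was listed at 0.

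In wild type IL-4 macrophages the order of levels was Siglec1, Cd33, Cd22, Siglece, Siglecf, Mag, Siglec15 and Siglecg, with Siglech listed at 0. Among the first 5, no range of 3 libraries touched that of its neighbour. In the libraries labelled CD22 knockout Siglece stood above Cd22, and their ranges overlapped (8.92 to 12.4 FPKM for Siglece and 8.21 to 9.53 FPKM for Cd22). Siglec1 and Cd33 led there too, again with no overlap with their neighbours. Mag, Siglec15 and Siglecg followed Siglecf in both groups in that order, each range clear of the next.

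**Figure D1:**
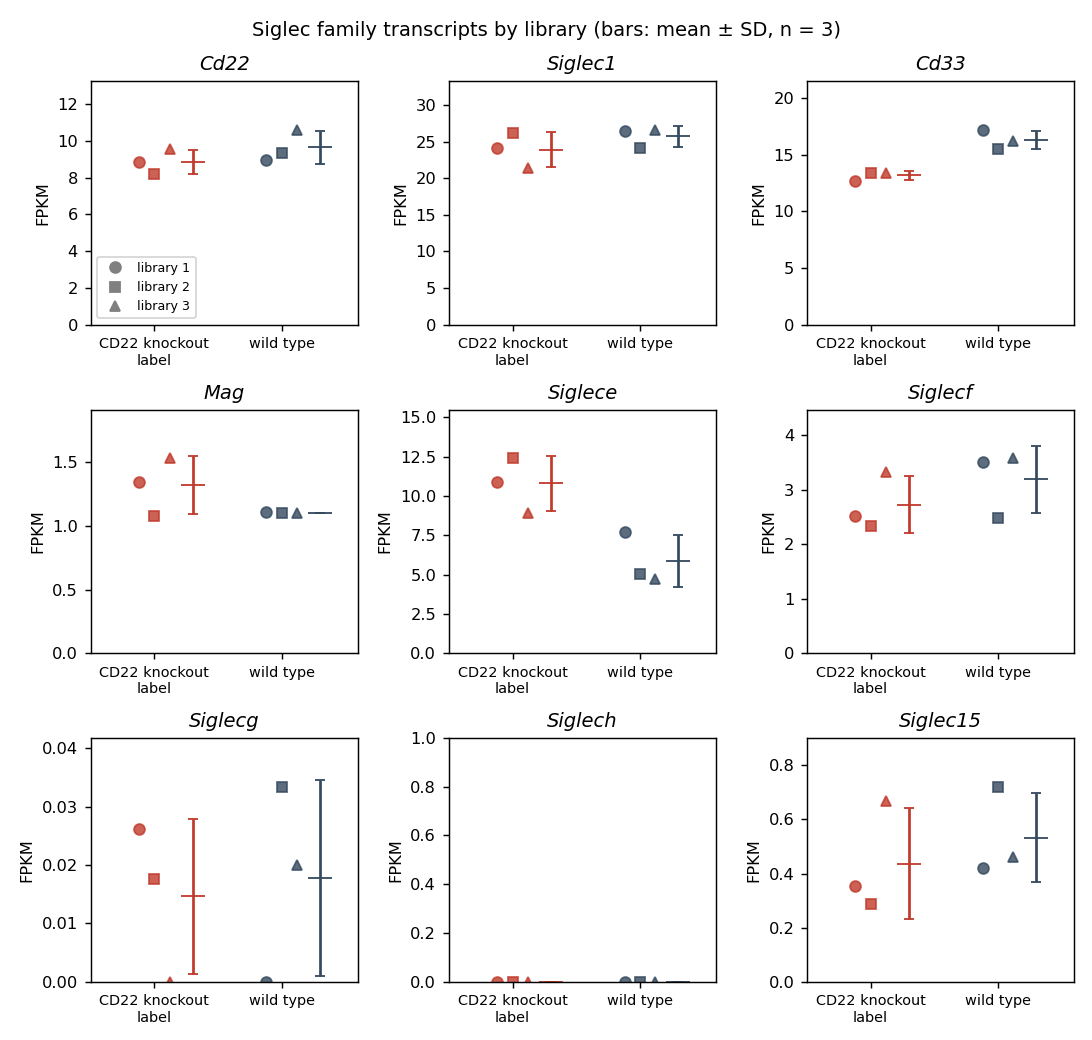
Each panel plots FPKM on a linear axis from 0 for 1 Siglec gene, with a point for each library and a bar for the mean ± SD of 3 libraries. The groups are apart for Siglece and Cd33 and overlap for the other genes, and all 6 points of Siglech lie at 0.

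By abundance, Siglec1 ranked 1761 of the 10777 genes tested in the libraries labelled CD22 knockout and 1658 in wild type, which is the upper 16.3% of genes in the libraries labelled CD22 knockout and the upper 15.4% in wild type. Cd33 ranked 3161 in the libraries labelled CD22 knockout and 2663 in wild type. The rank of Cd22 was 4403 in the libraries labelled CD22 knockout and 4171 in wild type, so that 40.9% of tested genes in the libraries labelled CD22 knockout and 38.7% in wild type stood at or above it. Siglece differed most, at rank 3749 in the libraries labelled CD22 knockout against 5888 in wild type. Siglecf ranked 8419 in the libraries labelled CD22 knockout and 7960 in wild type, and Mag 10163 in the libraries labelled CD22 knockout and 10491 in wild type, both towards the lower end of what was tested.

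**Figure D2:**
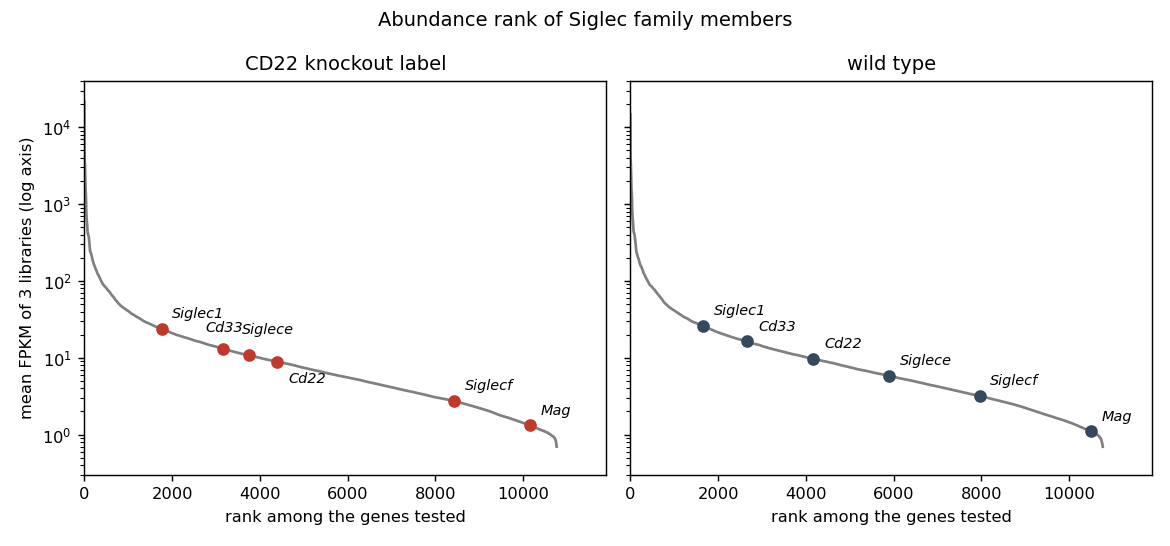
Mean FPKM of 3 libraries (log axis) is plotted against rank among the genes tested, for the CD22 knockout label at left and wild type at right, with the 6 tested Siglec genes marked on the curve of all genes. Siglece lies at rank 3749 at left and 5888 at right, while Siglec1 lies at 1761 and 1658.

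Summed over the 9 genes, Siglec transcripts came to 60.9, 63.9 and 58.8 FPKM in the libraries labelled CD22 knockout and 65.4, 58.3 and 63.3 FPKM in wild type, ranges that overlapped. The make-up of that sum is described here and was not tested. Siglece supplied 17.5 ± 2.17% of it in the libraries labelled CD22 knockout and 9.34 ± 2.24% in wild type (SD, n = 3 each). Cd33 supplied 21.5 ± 1.03% in the libraries labelled CD22 knockout and 26.1 ± 0.522% in wild type. Siglec1 was the largest part throughout, with 36.5% to 40.9% in libraries labelled CD22 knockout and 40.6% to 42.0% in wild type, and Cd22 made up 12.8% to 16.2% in the libraries labelled CD22 knockout and 13.7% to 16.8% in wild type. These shares add to a fixed total, so a larger share of one gene lowers the others. They rest on the same values as the level of each gene, so they are not separate evidence of a difference.

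**Figure D3:**
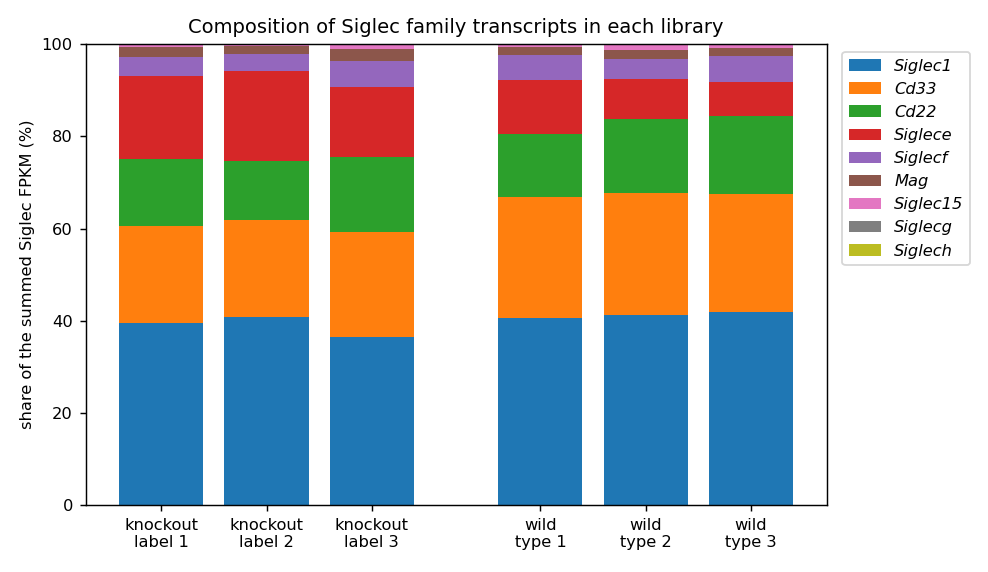
Stacked bars give each member's share of the summed Siglec FPKM, in percent, for the 3 libraries labelled CD22 knockout and the 3 wild type libraries. The Siglece part spans 15.2% to 19.4% in the libraries labelled CD22 knockout and 7.49% to 11.8% in wild type.

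Whether any member differed between genotypes was tested with limma over all 10777 genes that reached 1 FPKM in at least 3 libraries, on the log2(FPKM + 1) scale. The cultures were sequenced in bulk, so fewer cells of a type and less RNA per cell cannot be told apart. Fold changes on that scale understate the change of low genes. Of the 9 members 6 passed that filter and 0 were called at an adjusted p below 0.05, against 44 of all genes tested (0.408%). In 2 members, Siglece and Cd33, the groups did not overlap, and the same was true of 17.1% of all genes tested. Those 2 members also had an unadjusted p below 0.05, as did 11.0% of all genes. The median log2 fold change was -0.11 over the 6 members and -0.02 over all genes. The number of genes called over the whole table was 92 without CD22 knockout library 3 and 28 without CD22 knockout library 2, and it was 11 without wild type libraries 1 and 2.

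Cd22 comes first among the ITIM-bearing receptors. Its transcript was at 8.85, 8.21 and 9.53 FPKM in the libraries labelled CD22 knockout, against 8.95, 9.36 and 10.6 FPKM in wild type. The groups overlapped, and the labelled knockout libraries held Cd22 at 0.919 of the wild type mean. The log2 fold change was -0.11 with a 95% interval of -0.30 to 0.08 (limma, adjusted p = 0.695). It was -0.16 without wild type library 1, -0.13 without wild type library 2 and -0.24 without both, and it lay between -0.24 and -0.04 over all alternatives, none of which called the gene. The deposited value is 1 number for 15 transcripts of the gene and separates no exons, so it checks the label only for a loss of the whole transcript. Transcript lying outside a deleted part of the gene would still be counted. The antisense gene Gm29439, within Cd22 on the other strand, was at 0 to 0.0501 FPKM. No source used here says whether counting used strand, so reads of Gm29439 and Cd22 could not be told apart if it did not.

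CD22 protein is best known from B cells. Of 15 B cell markers 3 passed the filter on low values, Cd79b, Ighm and Igkc, and the others lay below it. Ms4a1, which encodes CD20, was at 0 to 0.0986 FPKM over the 6 libraries. Pax5, the B cell identity factor, lay at 0.00477 to 0.0307 FPKM. Cd79b, a signalling chain of the B cell receptor, was at 3.89, 4.27 and 3.43 FPKM in the libraries labelled CD22 knockout and 3.72, 3.15 and 3.72 FPKM in wild type, while its partner Cd79a stayed at 0.0392 to 0.375 FPKM. Immunoglobulin heavy chain Ighm was at 3.31 to 5.39 FPKM, and light chain Igkc at 1.46 to 2.88 FPKM. Summed over the 15 B cell markers, the libraries labelled CD22 knockout had 11.9, 11.4 and 10.2 FPKM and wild type 12.6, 10.2 and 9.13 FPKM, so the marker sums overlapped as Cd22 did.

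Siglece, whose product Siglec-E is the main ITIM-bearing CD33-related receptor of mouse myeloid cells, showed the largest difference of the family. It was at 10.9, 12.4 and 8.92 FPKM in the libraries labelled CD22 knockout, against 7.74, 5.07 and 4.74 FPKM in wild type. Each labelled knockout library lay above each wild type library, and wild type library 1 was the closest of its group to them. The mean was 10.8 ± 1.76 FPKM in the libraries labelled CD22 knockout and 5.85 ± 1.64 FPKM in wild type (SD, n = 3 each), a 1.84-fold ratio. On the test scale the difference was 0.79 with an SE of 0.182 and a 95% interval of 0.37 to 1.22, and it was not called (limma, adjusted p = 0.194). The authors' deposited table gives the same gene a q of 9e-05, below the 0.05 that 0.693% of its genes pass, and does not mark it as significant there. Without wild type library 1, which held the most adipocyte and muscle transcript, the log2 fold change was 0.98 and the gene was called (limma, adjusted p = 0.0239). Without wild type libraries 1 and 2 the log2 fold change was 1.02 and the gene was not called (limma, adjusted p = 0.205). Over the other alternatives the log2 fold change was 0.68 to 0.91.

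Set against Cd22 in the same library, Siglece was 1.24, 1.51 and 0.935 times as abundant in the libraries labelled CD22 knockout and 0.864, 0.542 and 0.445 times in wild type. Against Cd33 the ratios were 0.859, 0.926 and 0.668 in the libraries labelled CD22 knockout and 0.451, 0.327 and 0.293 in wild type. Neither ratio overlapped between the groups, and a ratio within a library does not depend on its scaling. Siglece alone was already apart, and Cd33 was apart the other way, so the ratio to Cd33 could not have overlapped. The ratio to Cd22 also rests on the same Siglece values, so neither ratio is separate evidence of a difference. Both ratios were chosen after the values were seen.

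Siglecf, which encodes the ITIM-bearing Siglec-F of mouse eosinophils and alveolar macrophages, was low. Its FPKM was 2.52, 2.34 and 3.33 in the libraries labelled CD22 knockout, against 3.52, 2.48 and 3.58 in wild type. The groups overlapped, with wild type library 2 among the lower values (log2 fold change -0.17, 95% interval -0.46 to 0.13, limma, adjusted p = 0.695). The log2 fold change was -0.30 without wild type library 2 (limma, adjusted p = 0.464), -0.11 without wild type library 1 and -0.30 without both. With 1 of the other libraries left out it was -0.28 without CD22 knockout library 3, -0.09 without CD22 knockout library 2, -0.10 without wild type library 3 and -0.13 without CD22 knockout library 1, and the gene was not called in any of these fits. The eosinophil granule genes Epx, Prg2 and Prg3 were listed at 0 in all 6 libraries. Ccr3, an eosinophil chemokine receptor that other cells can express, was at 2.26 to 4.89 FPKM. Of the alveolar macrophage markers 4 were tested, 2 with a higher and 2 with a lower mean in the libraries labelled CD22 knockout, and 0 were called. Car4 was at 0 to 0.153 FPKM and Krt79 at 0 to 0.025 FPKM. Marco, a scavenger receptor, was at 12.3, 10.2 and 7.77 FPKM in the libraries labelled CD22 knockout and 6.06, 6.57 and 6.92 FPKM in wild type, without overlap or a call (limma, adjusted p = 0.2). Fabp4, a fatty acid-binding protein that adipocytes also make, lay the other way, at 7.93, 7.88 and 5.18 FPKM in the libraries labelled CD22 knockout and 15.4, 9.65 and 10.7 FPKM in wild type (limma, adjusted p = 0.339). Ear2, a ribonuclease gene, was at 9.09 to 21.9 FPKM and Pparg, a lipid-sensing nuclear receptor, at 17.2 to 22.0 FPKM, and for both the groups overlapped.

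Siglecg, the ITIM-bearing Siglec-G of B1 cells, was at 0.0262, 0.0176 and 0 FPKM in the libraries labelled CD22 knockout, against 0, 0.0334 and 0.02 FPKM in wild type. These values lie far below the filter, and no difference could be read at this level. The 4 ITIM-bearing members together, Cd22, Siglece, Siglecf and Siglecg, came to 22.3, 23.0 and 21.8 FPKM in the libraries labelled CD22 knockout and 20.2, 16.9 and 19.0 FPKM in wild type. The groups did not overlap in this sum, and of the 4 members alone it was Siglece whose groups did not overlap. Cd33, Siglech and Siglec15 together, nearly all of it Cd33, came to 13.1, 13.7 and 14.0 FPKM in the libraries labelled CD22 knockout and 17.6, 16.2 and 16.6 FPKM in wild type, apart in the opposite direction. Both sums were chosen with the members' values known.

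Siglec1, on chromosome 2, also called sialoadhesin or CD169, is a long adhesion receptor of tissue macrophages that lacks an ITIM and is known to respond to interferon. At 24.1, 26.1 and 21.4 FPKM in the libraries labelled CD22 knockout, against 26.5, 24.1 and 26.6 FPKM in wild type, it was the most abundant Siglec transcript of every library. The groups overlapped (log2 fold change -0.11, 95% interval -0.30 to 0.09, limma, adjusted p = 0.712). The log2 fold change lay between -0.17 without CD22 knockout library 2 and -0.03 without CD22 knockout library 3. Of 18 interferon-stimulated genes 15 were tested and 0 were called, 3 with a higher and 12 with a lower mean in the libraries labelled CD22 knockout (median log2 fold change -0.07, against -0.02 over all genes). The groups overlapped for all 15. Among those with a lower mean was Rsad2, the antiviral protein viperin, at 6.69, 6.85 and 4.67 FPKM in the libraries labelled CD22 knockout and 9.69, 7.99 and 6.19 FPKM in wild type (limma, adjusted p = 0.542). Ifit1, an RNA-binding antiviral protein, was at 2.06, 2.49 and 1.51 FPKM in the libraries labelled CD22 knockout and 3.30, 3.01 and 2.09 FPKM in wild type (limma, adjusted p = 0.469). Bst2 had a higher mean, at 109, 124 and 107 FPKM in the libraries labelled CD22 knockout and 93.5, 119 and 99.8 FPKM in wild type (limma, adjusted p = 0.701).

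Mag, the myelin-associated glycoprotein that binds sialylated gangliosides on axons, was present at a trace level. Its FPKM was 1.34, 1.08 and 1.53 in the libraries labelled CD22 knockout, against 1.11, 1.10 and 1.10 in wild type. The groups overlapped through labelled knockout library 2, and the 3 wild type values were almost the same (SD 0.00127 FPKM). The log2 fold change was 0.14 with a 95% interval of -0.08 to 0.35 (limma, adjusted p = 0.658). It was 0.07 without CD22 knockout library 3 and 0.21 without CD22 knockout library 2. Of 10 myelin-forming glia markers 6 were in the table. Mobp was listed at 0 in all libraries, while Mbp was at 3.16 to 4.03 FPKM and Cldn11 at 2.48 to 6.54 FPKM.

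Cd33 encodes a myeloid receptor whose mouse form lacks the classical ITIM of human CD33. It was at 12.7, 13.4 and 13.4 FPKM in the libraries labelled CD22 knockout, against 17.2, 15.5 and 16.2 FPKM in wild type. The groups were apart and each was tight, with a coefficient of variation of 2.93% in the libraries labelled CD22 knockout and 5.10% in wild type. The wild type mean was 1.24-fold higher (log2 fold change -0.29, SE 0.074, 95% interval -0.45 to -0.12), and the difference was not called (limma, adjusted p = 0.185). In the authors' deposited table its q is 0.0604. The log2 fold change lay between -0.32 and -0.25 under every alternative run, and the gene was not called under any of them.

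Siglech, which encodes the DAP12-coupled Siglec-H of plasmacytoid dendritic cells, was listed at 0 in all 6 libraries. The plasmacytoid dendritic cell marker Ccr9 was at 0.00682 to 0.0241 FPKM, Dntt was listed at 0, and Cox6a2 was at 4.80 to 7.51 FPKM. Siglec15, a DAP12-coupled receptor of osteoclasts whose gene lies on chromosome 18, was at 0.354, 0.287 and 0.669 FPKM in the libraries labelled CD22 knockout, against 0.419, 0.721 and 0.460 FPKM in wild type. It missed the filter and the groups overlapped (2-sided exact permutation test on FPKM, p = 0.5, where 3 against 3 libraries cannot go below 0.1). Of 11 osteoclast-associated genes, several of which macrophages also express, 9 were tested and 0 called, 4 with a higher and 5 with a lower mean in the libraries labelled CD22 knockout (median log2 fold change -0.01). The most abundant was Atp6v0d2, a proton pump subunit, at 266 to 372 FPKM. Mmp9, the matrix metalloproteinase gelatinase B, was at 29.0, 18.7 and 40.6 FPKM in the libraries labelled CD22 knockout and 88.9, 57.8 and 79.4 FPKM in wild type, with no overlap and no call (limma, log2 fold change -1.37, adjusted p = 0.274). Ocstamp, a fusion protein of osteoclasts, lay the other way, at 39.5, 30.9 and 53.9 FPKM in the libraries labelled CD22 knockout and 32.0, 27.0 and 29.8 FPKM in wild type, and the groups overlapped (limma, adjusted p = 0.463). Calcr, the calcitonin receptor of mature osteoclasts, was at 0 to 0.0107 FPKM.

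**Figure D4:**
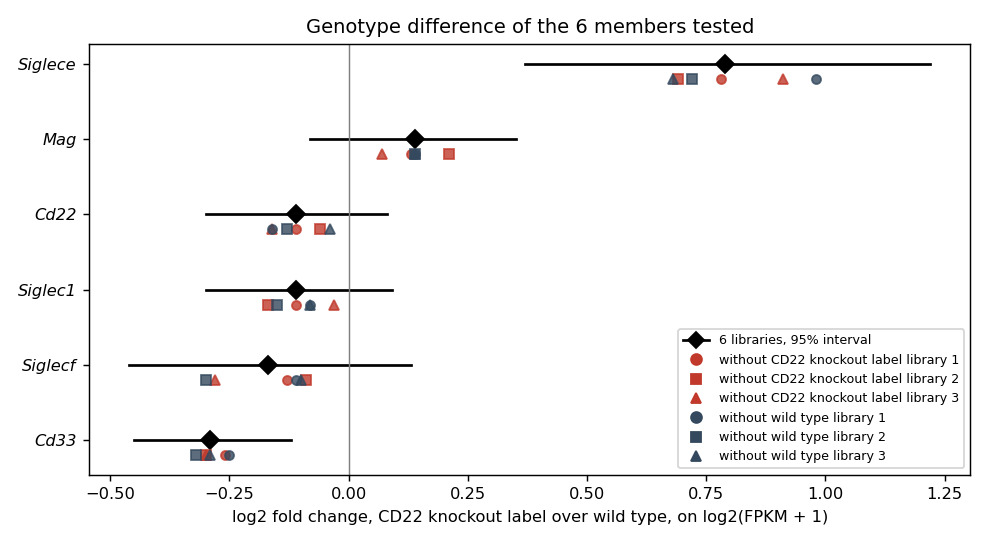
Diamonds and lines give the log2 fold change on log2(FPKM + 1), CD22 knockout label over wild type, and its 95% interval for the 6 members tested, and the small symbols give the value with 1 library left out. Siglece keeps values from 0.68 to 0.98 and Cd33 from -0.32 to -0.25, while the intervals of the other 4 members include 0.

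**Figure D5:**
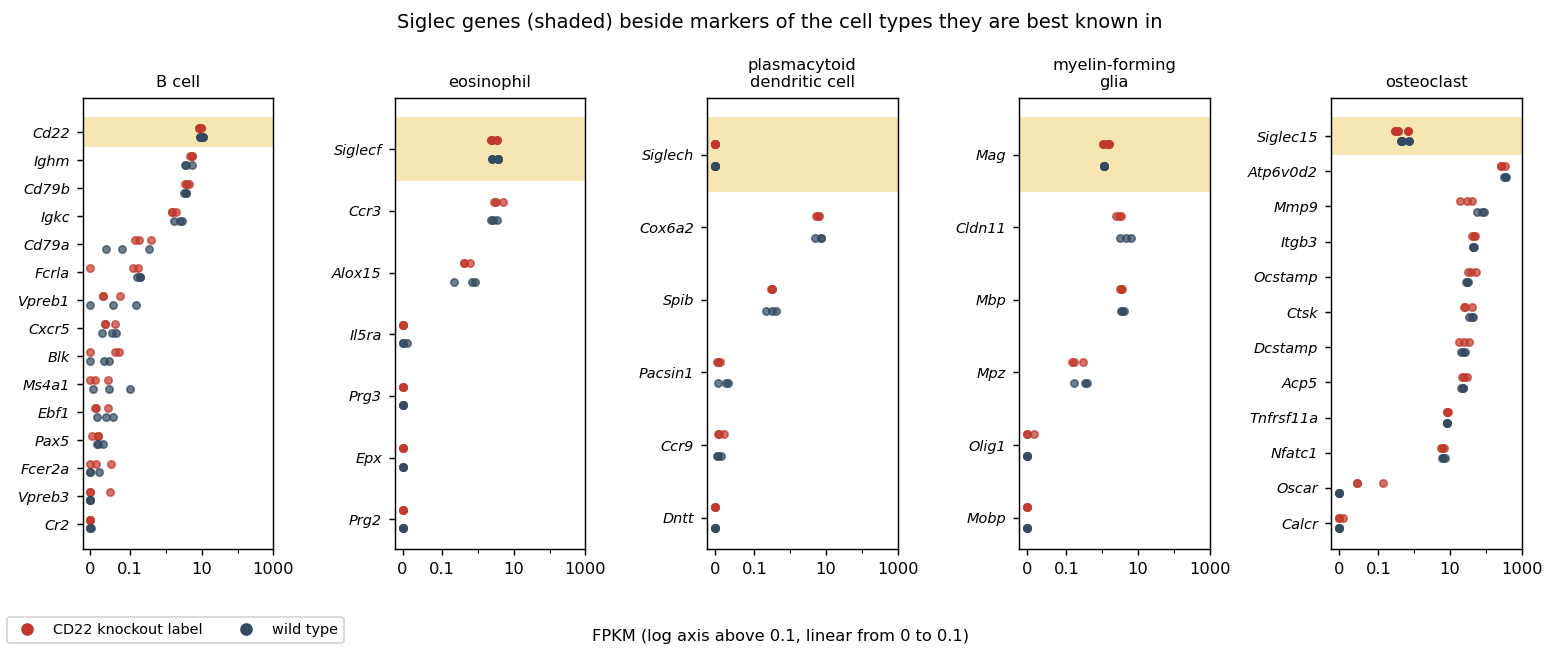
FPKM (log axis above 0.1, linear below) is plotted for 5 Siglec genes, shaded, above markers of the cell types they are best known in, with a point for each library. Cd22 lies above every B cell marker plotted, Siglech lies at 0, and Siglec15 lies below most osteoclast markers.

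The spread within a group differed between members. Among the 6 tested genes the coefficient of variation over wild type libraries was 28.1% for Siglece, 19.5% for Siglecf, 9.15% for Cd22, 5.62% for Siglec1, 5.10% for Cd33 and 0.115% for Mag. In the libraries labelled CD22 knockout it was 16.4% for Siglece, 19.2% for Siglecf, 7.45% for Cd22, 9.89% for Siglec1, 2.93% for Cd33 and 17.2% for Mag. Siglece and Siglecf were thus the more variable members in wild type.

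Genes that followed the same profile over the 6 libraries were named by the highest Pearson r on log2(FPKM + 1), as a description. Closest to Cd22 were Nepro (r = 0.991), Mrgpre (0.984) and Fam20c, a secretory pathway kinase (0.976), the last at 117, 110 and 126 FPKM in the libraries labelled CD22 knockout and 121, 123 and 133 FPKM in wild type. Closest to Siglece were Depdc7 (0.995), Ppp5c, a protein phosphatase (0.993), and Cep85, a centrosomal protein (0.993). Cep85 had the wider range, at 19.2, 19.2 and 13.3 FPKM in the libraries labelled CD22 knockout and 11.2, 5.44 and 5.35 FPKM in wild type. Closest to Cd33 were Polr2a, the largest subunit of RNA polymerase II (0.989), Slc25a44 (0.986) and Scaf8 (0.985). Within each library all genes share the same scaling. With 6 points, 9 genes had an r above 0.95 with Cd22, 37 with Siglece and 58 with Cd33.

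The genes beside Cd22 gave no called difference. On either side the nearest tested genes were Tmem147 (log2 fold change -0.09), Tmem147os (-0.01), Mag (0.14) and Usf2-ps1 (0.03), with adjusted p of 0.801, 0.994, 0.658 and 0.924 (limma). Within 1 Mb of Cd22 there were 37 other tested genes, of which 0 were called and 4 had an unadjusted p below 0.05, with a median log2 fold change of -0.04. Within 1 Mb of Siglece 15 others were tested, 0 were called and 2 had an unadjusted p below 0.05, with a median of 0.03. Over all genes tested, 11.0% had an unadjusted p below 0.05.

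Among the signalling partners of Siglecs 0 genes were called, and their levels ran from Socs3, a signalling inhibitor at 1.39 to 3.66 FPKM, to Tyrobp. All 16 genes of ITIM signalling were tested, 6 with a higher and 10 with a lower mean in the libraries labelled CD22 knockout. Their median log2 fold change was -0.03, and 1 had an unadjusted p below 0.05, as did 11.0% of all genes tested. That gene was Fgr, a Src family kinase, at 12.2, 11.3 and 9.21 FPKM in the libraries labelled CD22 knockout and 8.45, 8.34 and 8.42 FPKM in wild type. The adaptor Grb2 was at 65.0 ± 2.45 FPKM in the libraries labelled CD22 knockout and 70.4 ± 4.95 FPKM in wild type (SD, n = 3 each). Of 11 genes of ITAM signalling 0 were called, with a median of -0.02. Tyrobp, which encodes DAP12, the partner of Siglec-H and Siglec-15, was at 288, 263 and 326 FPKM in the libraries labelled CD22 knockout and 320, 398 and 297 FPKM in wild type. Card9, a scaffold downstream of Syk, was at 16.3, 15.9 and 17.0 FPKM in the libraries labelled CD22 knockout and 13.2, 14.2 and 14.3 FPKM in wild type.

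Genes that build, attach and remove the sialic acid ligands also had 0 calls. Of 25 genes of synthesis and transfer 16 were tested, with a median log2 fold change of -0.06. In the libraries labelled CD22 knockout 7 had a higher and 9 a lower mean. The share of all genes tested with an unadjusted p below 0.05 was 11.0%, and 2 of these 16 passed. These were St8sia4, a polysialyltransferase, at 3.11 ± 0.484 FPKM in the libraries labelled CD22 knockout and 4.04 ± 0.138 FPKM in wild type, and St3gal5, the ganglioside GM3 synthase, at 14.2 ± 1.21 FPKM in the libraries labelled CD22 knockout and 16.9 ± 1.59 FPKM in wild type (SD, n = 3 each). Of 8 removal genes 5 were tested. Npl, which breaks down free sialic acid, was at 2.89, 2.71 and 2.83 FPKM in the libraries labelled CD22 knockout and 2.03, 2.27 and 2.09 FPKM in wild type, with no overlap and no call (limma, adjusted p = 0.212). The IL-4 response, of which 17 of 18 genes were tested, had 0 calls and a median log2 fold change of 0.01, 11 genes with a higher and 6 with a lower mean in the libraries labelled CD22 knockout. The 3 with an unadjusted p below 0.05, which 11.0% of all genes tested had, were Chil3, Clec10a and Ccl22. Chil3, which encodes the chitinase-like protein Ym1, was at 1260 ± 199 FPKM in the libraries labelled CD22 knockout and 1580 ± 139 FPKM in wild type. Clec10a, a galactose-type lectin, was at 59.8 ± 6.10 FPKM in the libraries labelled CD22 knockout and 48.6 ± 8.53 FPKM in wild type, and the chemokine gene Ccl22 at 2.38 ± 0.285 FPKM in the libraries labelled CD22 knockout and 1.62 ± 0.562 FPKM in wild type. Arg1, the arginase of M2-like cells, was at 1060 ± 48.0 FPKM in the libraries labelled CD22 knockout and 897 ± 111 FPKM in wild type (SD, n = 3 each). For all 17 IL-4 response genes tested the groups overlapped.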

How the data were processed

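RNA of 6 macrophage cultures was sequenced from poly(A), strand-specific libraries with paired ends, per the protocols in the labels. The authors deposited 1 table with FPKM per gene and library and no counts, per the file headers. It also holds their own fold (mean labelled knockout over mean wild type FPKM, per the values), its log2 and a p-value and q-value, as deposited; no source used here gives the method behind them. Per the submitters' processing notes the tools included HISAT2, StringTie, cutadapt and FastQC, and also edgeR and DESeq2, without versions or roles. Neither the build nor the annotation is stated, so positions came from GENCODE release 21 (GRCm38) by gene ID, which held 99.7% of the IDs.

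The 10777 genes that reached 1 FPKM in 3 or more libraries were tested on log2(FPKM + 1) by limma (version 3.58.1, R 4.3.3) using a mean trend, robust moderation and no covariates, 2-sided, with Benjamini-Hochberg adjustment over all of them. Folds are ratios of mean FPKM. Named are the 9 members, from each list the 4 genes of lowest p and the most abundant marker, the 3 genes most like Cd22, Siglece and Cd33, and the genes next to Cd22, of which not all are reported here. Others named, such as the defining markers Pax5 and Epx, and also Bst2 and Socs3, were chosen after their values were seen. The members and lists were chosen with earlier results of these data known. Alternatives were a pseudocount of 0.1, no filter, a minimum FPKM of 5, 2 scalings, no robust moderation, a replicate block and libraries left out.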

Additional observations from a re-analysis of the deposited data

How the results depend on the processing

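The 6 tested members kept their direction in all 88 fits with another setting, and 87 of these left the member on the same side of the threshold. The exception was Siglece without WT replicate 1. With 1 library left out its log2 fold change was 0.68 to 0.98, and the number of members called was 0 to 1. The number of genes called over the whole table was 28 to 92 with 1 library left out, 3 with no filter on low values, where 25499 genes were tested, and 11 without wild type libraries 1 and 2, where the lone wild type library is assumed to vary like the others. The cause of these differences was not tested. Ranked among all 23349 genes above 0, Mag stood at 10523 in wild type. Without the mitochondrial genes, a setting chosen after seeing the data, 52 genes were called. The labels do not say whether same-numbered libraries are paired. Deviations of same-numbered libraries correlated at 0.0559, -0.0336 and 0.0703, and 3 libraries in each group cannot settle it. With the replicate block 63 genes and 0 members were called, with Siglece at 0.79 and Cd22 at -0.11. The SE of Siglece was then 0.13 against 0.182 without the block (limma, adjusted p = 0.086 against 0.194). With the block the SE was also smaller for Siglecf and Cd22, and larger for Siglec1, Cd33 and Mag. No test on counts could be run, and without counts the depth that limits Siglecg, Siglech and Siglec15 is unknown.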
